A study of Mus musculus with 10 samples.

Results

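Tmem176a and Tmem176b are neighbouring mouse genes that are read from opposite strands of chromosome 6. They were 2 of the 24421 gene symbols in the deposited counts and were chosen by their level, because both were higher in the Trpv1+ nodose neurons than in the Trpv1- nodose neurons and the Trpv1+ jugular neurons. Those differences are therefore given as a description with no test. The level in the Trpv1+ nodose pools is likewise a description. The balance between both genes was not part of the choice of genes. Nor did the choice name a difference between ganglia in neurons picked by another method, although it was made across all 5 groups of pools.

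The study compared vagal sensory neurons of the nodose ganglion, which derives from the epibranchial placodes, with those of the jugular ganglion, which derives from the neural crest. Neurons were picked singly from the caudal (nodose) or rostral (jugular) end of the dissociated mouse ganglion complex, and pools of them were copied to cDNA, amplified and sequenced. There were 10 pools in 5 groups of 2. In the Trpv1 selection, neurons came from 2 Trpv1-tdTomato mice, a cross of Trpv1-Cre mice with a tdTomato reporter strain, in which cells that express or once expressed Cre from the Trpv1 gene turn red. These gave 2 pools of 30 red nodose neurons (Trpv1+ nodose), 2 pools of 30 red jugular neurons (Trpv1+ jugular) and 2 pools of 15 nodose neurons without red signal (Trpv1- nodose). For the capsaicin selection, C57BL/6 mouse neurons were exposed, under calcium imaging, to 1 µM capsaicin, an agonist of the TRPV1 channel, and 10 µM α,β-methylene-ATP, which activates P2X receptors. The capsaicin nodose pools held 14 and 15 neurons that answered both agonists, and the capsaicin jugular pools held 15 and 16 neurons that answered capsaicin but not α,β-methylene-ATP. The 2 selections were sequenced at different cores and depths and used different mouse lines, so selection, core, line and depth cannot be told apart. No source ties a pool to a single animal, so the spread between replicate pools may be partly technical.

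Both genes code for small proteins with several membrane-spanning segments, related to the MS4A family that includes CD20, and they are known to act as cation channels of intracellular vesicles. They are best studied in dendritic cells, where they have been linked to antigen presentation on class II molecules. A sensory ganglion holds immune cells and glia beside its neurons.

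In GENCODE vM21 on GRCm38, the assembly also called mm10, Tmem176a (ENSMUSG00000023367.14) spans chr6:48840919-48847071 on the forward strand. Tmem176b (ENSMUSG00000029810.15) spans chr6:48833818-48841496 on the reverse strand. The genes are arranged head to head, and their annotated spans overlap by 578 bases. Of their exons, 81 bases lie over each other on opposite strands, which is 2.126% of the 3810 exon bases of Tmem176a and 3.416% of the 2371 exon bases of Tmem176b. Whether strand was used in counting is not given in the sources used here, so reads within those 81 bases could not be told apart by gene. The nearest divergent RefSeq starts, at 48841374 for Tmem176b and 48841483 for Tmem176a (GRCm38.p6), are 109 bases apart.

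The coding sequences were compared because the results below depend on reads being given to the right gene of the pair. The coding sequence of Tmem176a (transcript Tmem176a-201) has 735 bases and that of Tmem176b (transcript Tmem176b-203) has 792 bases, stop codons included. Aligned end to end, 419 of 710 paired bases were identical (59.0%). The longest run that both coding sequences share is 11 bases and lies at the same place in each, coding bases 76 to 86. It is shown in capitals within the 71 bases around it (coding bases 46 to 116), read 5′ to 3′ on the coding strand from the GENCODE transcripts. The stretch of Tmem176a lies at chr6:48842252-48842322 (forward strand) and that of Tmem176b at chr6:48838242-48838312 (reverse strand), each inside 1 coding exon.
Tmem176a: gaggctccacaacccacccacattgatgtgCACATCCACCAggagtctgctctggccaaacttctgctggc
Tmem176b: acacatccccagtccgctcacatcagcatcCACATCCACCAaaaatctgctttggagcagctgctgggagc
Across all 7 annotated transcripts of Tmem176a and all 12 of Tmem176b, 0 runs of 25 bases were shared on the same strand. On opposite strands 38 such runs were shared.

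Levels are given as CPM, counts scaled by DESeq2 size factors over all 10 pools to the geometric mean total. The total count was 148452506 to 167704327 per pool in the Trpv1 selection and 17666710 to 30810863 in the capsaicin selection. A count of 3, taken as the floor, was at most 0.0191 CPM in the first and at most 0.217 CPM in the second, counting error only. Every pool had more than 3 counts of both genes, with the lowest value, 24 counts, for Tmem176a in the second capsaicin jugular pool. Marker levels followed the labels: the nodose markers P2rx2 and Hoxb5 were at 76.1 and 289 CPM or more in each nodose pool and at most 0.292 and 0.243 CPM in each jugular pool, while the jugular markers Prdm12, Tac1 and Gfra3 summed to 411 CPM or more in the jugular pools and at most 1.54 CPM in the nodose pools. Hoxb5 and Prdm12 were named by the study from these same pools. The response to a P2X agonist helped to pick the capsaicin pools, so these markers are not an independent check. Trpv1 itself had 8 and 9 counts in the Trpv1- nodose pools and 1693 or more in the other pools. Among those others it was lowest in the Trpv1+ jugular pools (22.1 and 31.9 CPM) and at 87.4 to 307 CPM in the rest. Ribosomal RNA reads, counted under Rn45s, made up 8.54% and 10.3% of the counts of the Trpv1+ nodose pools, where the pair was highest. Their share was 2.65% to 3.38% in the Trpv1+ jugular and Trpv1- nodose pools and did not exceed 0.137% in any capsaicin pool. With Rn45s left out, the log2 fold change of Trpv1+ over Trpv1- nodose was 5.3 for Tmem176a and 4.07 for Tmem176b. Trpv1+ nodose over Trpv1+ jugular then gave 2.43 and 2.98, and the values with Rn45s kept are given below. Any other part of these reads in the level of the pair was not tested.

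Tmem176b was highest in the nodose neurons that carry Trpv1. Its level was 1199.55 and 1124.54 CPM in the Trpv1+ nodose pools (mean 1162 ± 53.0, SD, n = 2). In the capsaicin nodose pools it was 644 and 975 CPM (mean 810 ± 234, SD, n = 2), so all 4 nodose pools picked for Trpv1 or capsaicin sensitivity lay above every other pool. The Trpv1+ jugular pools had 151 and 143 CPM (mean 147 ± 6.21, SD, n = 2). The capsaicin jugular pools had 38.4 and 104 CPM (mean 71.4 ± 46.6, SD, n = 2). The Trpv1- nodose pools had 67.5 and 73.8 CPM (mean 70.6 ± 4.43, SD, n = 2) and fell between the capsaicin jugular pools, so these last groups did not separate. Every other pair of neighbours in the order of means was without overlap, although with 2 pools a group no order could be shown by an exact test.

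Tmem176a followed a similar order at lower levels and, among the capsaicin pools, with a far wider spread. In the Trpv1+ nodose pools it was 384 and 640 CPM (mean 512 ± 181, SD, n = 2). The capsaicin nodose pools had 310 and 34.1 CPM (mean 172 ± 195, SD, n = 2), a 9.07-fold difference between replicates. The Trpv1+ jugular pools, with 100.1 and 90.6 CPM (mean 95.3 ± 6.75, SD, n = 2), lay between the capsaicin nodose pools. The capsaicin jugular pools had 63.1 and 1.24 CPM (mean 32.2 ± 43.8, SD, n = 2), a 50.9-fold difference between replicates. The Trpv1- nodose pools had 14.7 and 11.8 CPM (mean 13.3 ± 2.04, SD, n = 2), which lay between the capsaicin jugular pools. Only the Trpv1+ nodose pools stood clear of all others for this gene.

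**Figure D1:**
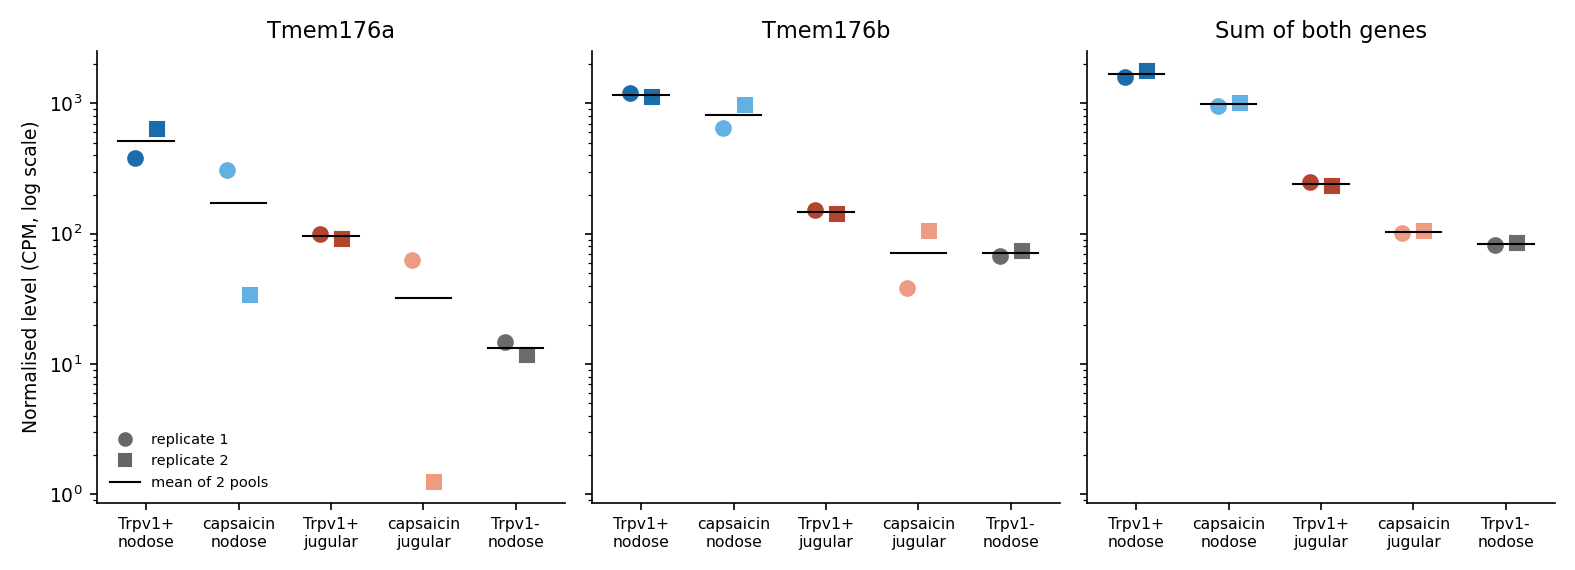
Normalised level (CPM, log scale) of Tmem176a, Tmem176b and their sum in each of the 10 pools, with circles for replicate 1, squares for replicate 2 and a black line at the mean of 2 pools. On this size-factor scale the sums of replicate pools nearly coincide in every group, while the Tmem176a level of the capsaicin pools differs 9.07-fold (nodose) and 50.9-fold (jugular) between replicates.

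Compared with other genes of the same pool, Tmem176b was among the most abundant transcripts per length in the Trpv1+ nodose neurons. This is a description, because these pools were used to choose the genes. On the RPKM scale, which divides by exon length, its level there was 506 and 474, and 1.05% and 1.12% of the genes with a count were higher. Tmem176a had 101 and 168 RPKM in these pools, with 5.46% and 3.46% of genes higher. In the Trpv1- nodose pools Tmem176b was at 28.5 and 31.1 RPKM and Tmem176a at 3.86 and 3.10 RPKM. There 12.8% and 11.6% of genes were higher than Tmem176b. That share was 2.48% and 2.97% in the capsaicin nodose pools and 8.08% and 8.05% in the Trpv1+ jugular pools. In the capsaicin jugular pools it was 29.1% and 11.1%. Tmem176b exceeded Tmem176a per length in 9 of 10 pools, and the first capsaicin jugular pool was the exception, with 16.6 RPKM for Tmem176a and 16.2 RPKM for Tmem176b.

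Added together on the size-factor scale, the pair varied much less between replicates than either gene in the capsaicin selection. The summed level was 1583.77 and 1764.36 CPM in the Trpv1+ nodose pools, and the higher pool exceeded the lower 1.11-fold. In the capsaicin nodose pools it was 954 and 1009 CPM (1.06-fold apart). In the Trpv1+ jugular pools it was 252 and 233 CPM (1.08-fold apart). The capsaicin jugular pools had 102 and 106 CPM (1.04-fold apart) and the Trpv1- nodose pools 82.2 and 85.6 CPM (1.04-fold apart). All groups were apart on this scale, in the order Trpv1+ nodose, capsaicin nodose, Trpv1+ jugular, capsaicin jugular, Trpv1- nodose. Both the closeness of replicates and the last step of this order depended on the size factors. Scaled by total counts alone, the capsaicin nodose pools had 824 and 452 CPM of the pair, with both genes lower in the second pool. On that scale the capsaicin jugular pools had 94.2 and 116 CPM, with the Trpv1- nodose pools (109 and 112 CPM) between them.

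The split between the genes was measured as the share of Tmem176a in the counts of both, given with exact 95% binomial intervals that cover counting error only. This share does not depend on the scaling of the pools. It was 24.3% (24.1% to 24.4%) and 36.3% (36.1% to 36.4%) in the Trpv1+ nodose pools. In the Trpv1+ jugular pools it was 39.8% (39.4% to 40.2%) and 38.8% (38.4% to 39.3%), and in the Trpv1- nodose pools it was 17.9% (17.3% to 18.5%) and 13.8% (13.3% to 14.3%). The shares of the Trpv1 selection thus lay between 13.8% and 39.8%, lowest in the Trpv1- nodose pools. The capsaicin selection ranged more widely. The capsaicin nodose pools had 32.5% (31.8% to 33.1%) and 3.38% (3.09% to 3.70%), and the capsaicin jugular pools 62.2% (60.1% to 64.3%) and 1.17% (0.753% to 1.74%). The intervals of replicate pools did not overlap in any group, even where their shares were close, as in the Trpv1+ jugular pools. They treat each read as a separate draw, although reads came from amplified cDNA. A difference beyond the sampling of the original molecules therefore cannot be read from them.

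**Figure D2:**
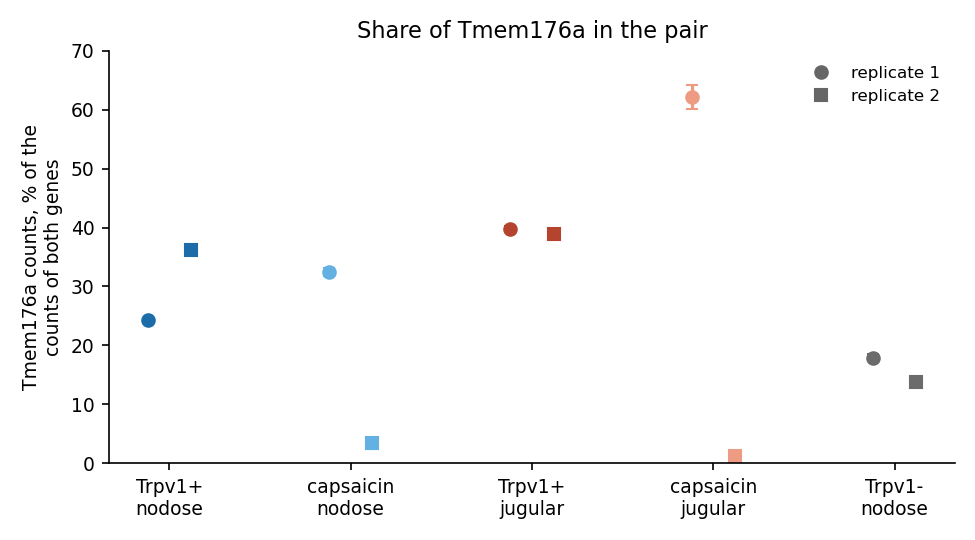
Tmem176a counts as a percentage of the counts of both genes in each pool, by group, with exact 95% binomial intervals (circles replicate 1, squares replicate 2). The second capsaicin pool of each ganglion lies at 3.38% and 1.17%, far below its replicate, and the other pools lie between 13.8% and 62.2%.

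Genes as unlike between replicates as Tmem176a were common among the capsaicin pools. Between the capsaicin nodose pools 50.5% of 6133 genes (10 CPM or more) differed at least as much as Tmem176a, and between the capsaicin jugular pools 15.4% of 7196 genes did. For Tmem176b these shares were 85.9% and 45.2%. In the Trpv1 selection 63.8% (Trpv1+ nodose), 90.8% (Trpv1+ jugular) and 80.5% (Trpv1- nodose) of genes differed at least as much as Tmem176a.

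The question whether the pair differs between the ganglia could be tested in the capsaicin selection, where the choice of genes named no difference. The genes were, however, chosen across all 5 groups, these pools included, and with earlier results of these data known. The test is therefore not fully independent of the choice. Tmem176b was higher in both capsaicin nodose pools than in either capsaicin jugular pool, and its log2 fold change was 3.10 (SE 0.81, n = 2 against 2, 8.55-fold). The adjusted p of edgeR's quasi-likelihood test was 0.352 (unadjusted p of 0.0113), so the difference was not called at the study's thresholds (adjusted p of at most 0.1, fold of at least 2, and 10 CPM or more in both pools of a group). Tmem176a had a log2 fold change of 2.25 (SE 2.15, adjusted p = 0.955 by the same test), and the pools of both ganglia overlapped, since the second capsaicin nodose pool (34.1 CPM) was below the first capsaicin jugular pool (63.1 CPM). No gene was called in this comparison: 0 of 8181 genes tested (0%), of which 1150 had an unadjusted p under 0.05. DESeq2, the study's tool, called 748 of 12162 genes (6.15%), the pair not among them (adjusted p = 0.416 for Tmem176b and 0.776 for Tmem176a). With 1 fit over all 10 pools, which takes the spread from every group and so also from the pools that chose the genes, Tmem176b was called with a log2 fold change of 3.39 (adjusted p = 0.0293). Over all alternatives of the edgeR and DESeq2 fits its adjusted p ran from 0.0293 to 1. Of all genes tested 6.82% had a higher log2 fold change towards nodose than Tmem176b and 11.5% a higher one than Tmem176a. Larger changes towards jugular were not counted in these shares. An exact permutation test of the 4 pools (two-sided) gave p = 0.333 for Tmem176b and for the summed pair, the smallest value that 2 against 2 pools allow, and p = 0.667 for Tmem176a. The share of Tmem176a was 17.9% (nodose) against 31.7% (jugular) on average, with p = 1 in the same exact test.

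In the Trpv1 selection, the contrasts that chose the genes were larger against the Trpv1- nodose neurons than against the jugular neurons. Over the Trpv1- nodose pools the log2 fold change of the Trpv1+ nodose pools was 5.30 for Tmem176a (SE 0.47, 39.4-fold) and 4.07 for Tmem176b (SE 0.24, 16.8-fold). Of the 11386 genes tested 6 (0.0527%) were called in this comparison by edgeR's quasi-likelihood test. DESeq2, the study's tool, called many more, 411 of 15300. Log2 fold changes above those of Tmem176a and Tmem176b, in the same direction only, were found for 2.68% and 3.96% of genes. Over the Trpv1+ jugular pools the log2 fold change was 2.42 for Tmem176a (SE 0.39, 5.36-fold) and 2.98 for Tmem176b (SE 0.21, 7.86-fold). Of 10990 genes 35 (0.318%) were called there by edgeR's test, against 534 of 15028 by DESeq2. In the edgeR fit 12.8% and 10.04% of genes had a higher log2 fold change in the same direction. These 2 comparisons share the Trpv1+ nodose pools. The log2 fold change of Trpv1, for reference, was 12.2 over the Trpv1- nodose pools (adjusted p = 0.0700, called), 2.86 over the Trpv1+ jugular pools (adjusted p = 0.321) and 0.32 between the capsaicin pools (adjusted p = 0.9999), all by edgeR's quasi-likelihood test.

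**Figure D3:**
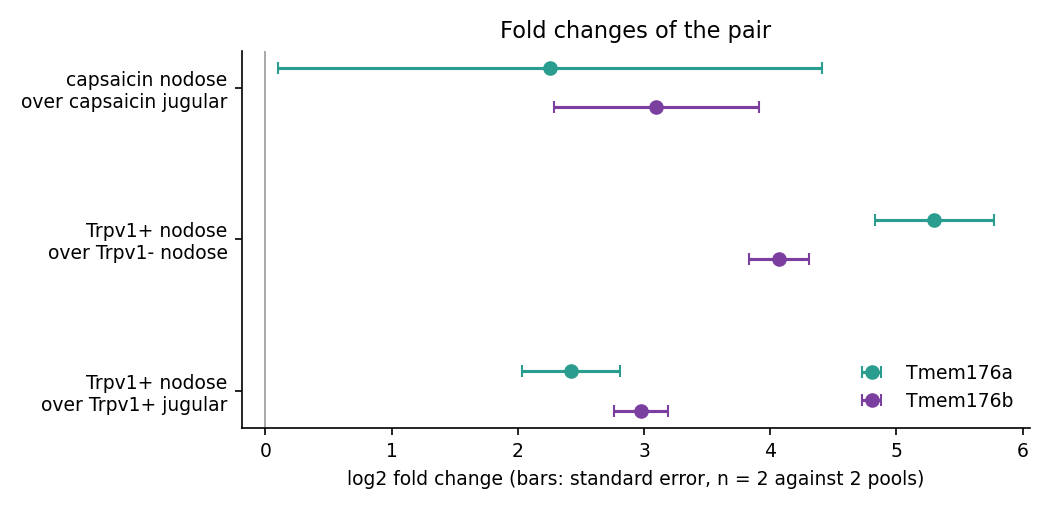
Log2 fold changes of Tmem176a and Tmem176b in the 3 comparisons of 2 against 2 pools, with bars of 1 standard error from the edgeR fit. All 6 values are above 0, and the widest bar is that of Tmem176a between the capsaicin pools (2.25, SE 2.15), whereas both comparisons of the Trpv1 selection are those that chose the genes.

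The Trpv1+ jugular pools held more of the pair than the Trpv1- nodose pools. The ratio of group means was 7.19 for Tmem176a and 2.08 for Tmem176b, and these pools did not overlap, but this comparison was not tested. The capsaicin jugular pools lay on both sides of the Trpv1- nodose pools for each gene. In bulk pools such as these, fewer cells with a transcript and less transcript per cell cannot be told apart.

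Few genes near the pair had counts. GENCODE lists 29 other genes within 200 kb, 14 of them protein coding, and 14 have a row in the counts. Only 6 of those had any count: Gimap8, Gimap6, Gimap1 and Gimap3, of a family of GTPases of lymphocytes, Aoc1, a diamine oxidase, and Gpnmb, a membrane glycoprotein. Of these, Gimap1 and Gimap6 alone reached 10 CPM in 2 pools. Gimap1 was at 11.1 and 16.8 CPM in the capsaicin nodose pools, 3.84 and 5.42 CPM in the capsaicin jugular pools and at most 1.42 CPM in the Trpv1 selection. Gimap6 was at 21.2 and 10.4 CPM in the Trpv1- nodose pools and at most 0.0213 CPM in all others. None of the neighbours was called in any of the 3 comparisons by edgeR's quasi-likelihood test, in which at most 3 of them were tested. The share called over all genes was only 0% between the capsaicin pools. It was 0.0527% for Trpv1+ over Trpv1- nodose and 0.318% for Trpv1+ nodose over Trpv1+ jugular, so this count says nothing about the neighbours. Their summed level never exceeded 22.5 CPM in a pool.

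**Figure D4:**
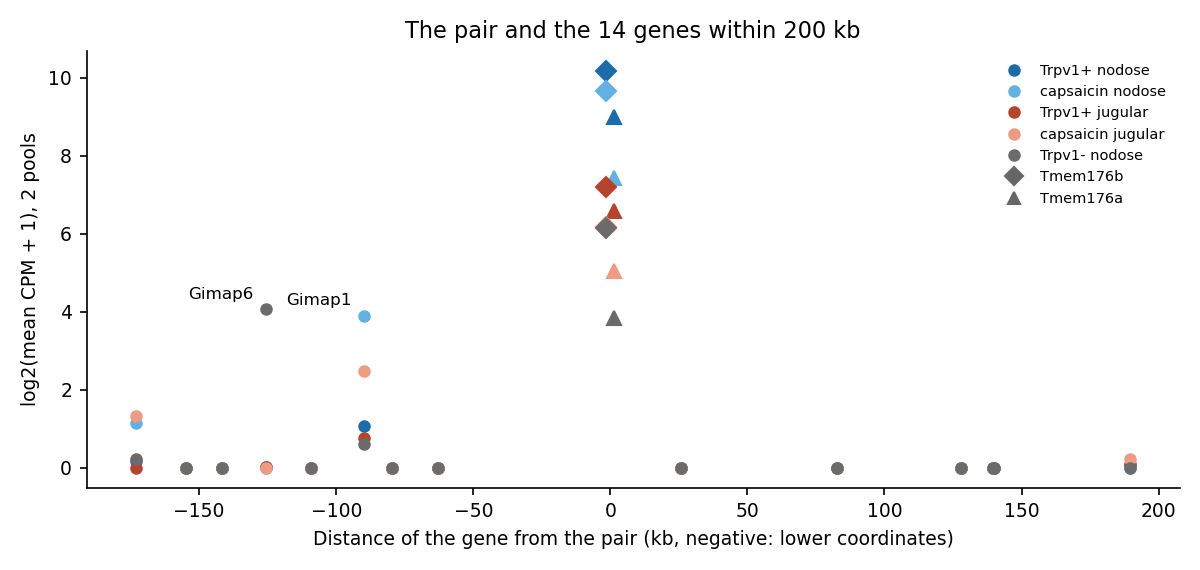
Mean level of each group, as log2(CPM + 1), for the pair (diamonds Tmem176b, triangles Tmem176a, set slightly apart for legibility) and for the 14 counted genes within 200 kb, by distance from the pair in kb. Gimap6 in the Trpv1- nodose pools and Gimap1 in the capsaicin nodose pools come near 4 on this scale, and in the Trpv1- nodose pools Gimap6 lies above Tmem176a (13.3 CPM). In the other groups both genes of the pair lie above every neighbour, and the diamonds of the capsaicin jugular and Trpv1- nodose pools (71.4 and 70.6 CPM) fall on each other.

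Between the nearest divergent RefSeq starts lie 108 bases with a GC content of 63.9%. All 108 lie within an untranslated exon of 1 Tmem176b transcript of the full GENCODE set, so they are not purely upstream sequence. Over 32851 windows of that length before RefSeq starts the median was 54.6%, and 26.4% were higher. The 108 bases hold 0 CpG dinucleotides. Both strands were searched for the ROR half-site AGGTCA, the CCAAT box CCAAT, the GC box GGGCGG, the TATA box TATAAA and the cAMP response element TGACGTCA, and none of these letters occurred. Of all windows of that length 6.34%, 19.9%, 25.5%, 5.87% and 1.20% hold them, in that order. The absence covers these letters in this window only.

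Of 11 genes of class II presentation, the pathway to which the pair has been linked, 6 had counts. In the capsaicin comparison 1 was tested, in Trpv1+ over Trpv1- nodose 4 and in Trpv1+ nodose over Trpv1+ jugular 5, with 0 called. Over all genes only 0%, 0.0527% and 0.318% were called in these comparisons by edgeR's quasi-likelihood test, so a count of 0 in this or any list below says nothing about the list. The median log2 fold change, over the 4 that could be tested, was 1.20 for Trpv1+ over Trpv1- nodose (0.01 over all genes) and, over 5, it was -0.15 for Trpv1+ nodose over Trpv1+ jugular (0.03 over all genes). Among the most abundant, H2-DMa, which helps load peptides, was at 45.2 and 32.6 CPM in the Trpv1+ nodose pools, 24.3 and 20.1 CPM in the Trpv1- nodose pools, and 85.9 and 0.0200 CPM in the Trpv1+ jugular pools. In the capsaicin selection it was at 93.8 CPM in the second nodose pool and at most 0.0517 CPM in the other 3. H2-Eb1, a class II chain, reached 10 CPM in 3 pools, the highest being a Trpv1- nodose pool with 25.2 CPM, and Ifi30, a thiol reductase of antigen processing, reached it in 1 pool (24.0 CPM, Trpv1+ nodose). Cd74, the class II invariant chain, was singled out after its values were seen: it was at 13.4 and 11.3 CPM in the Trpv1+ nodose pools and at most 0.440 CPM in all others. H2-Aa, a class II chain also named after its values were seen, was at 32.4 CPM in the first Trpv1+ nodose pool and at most 0.0150 CPM in all others, its replicate included. Their part in the pair's level was not tested.

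The nuclear receptor genes Rora and Rorb were not called in any comparison that tested them. Rorb, which neurons express, was at 122 and 95.4 CPM in the Trpv1+ nodose pools, 82.0 and 55.3 CPM in the Trpv1+ jugular pools and 60.9 and 52.2 CPM in the Trpv1- nodose pools. In the capsaicin selection it was at 4.75 and 12.9 CPM (nodose) and at 4.13 CPM in both jugular pools. Rora was highest in the second pool of both jugular groups, with 56.2 CPM (Trpv1+) and 29.6 CPM (capsaicin), and stayed at or below 3.98 CPM elsewhere. Of the MS4A family, the relatives of the pair, 5 of 16 genes had counts, at most 2 were tested in a comparison and none was called. Their summed level stayed at or below 16.3 CPM in every pool, led by Ms4a3 with 15.9 CPM in 1 Trpv1+ jugular pool and 1 capsaicin jugular pool.

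Markers of other cells that could carry these transcripts were set beside the pair. Of 17 leukocyte markers in the counts 7 had any count, and Ptprc (CD45) and Csf1r, which define leukocytes and macrophages, were at 0 in all 10 pools. The summed level of the list was 14.6 to 18.2 CPM in the Trpv1+ nodose pools, 4.85 to 7.62 CPM in the Trpv1+ jugular pools and 1.60 to 38.9 CPM in the Trpv1- nodose pools. It was 3.33 to 94.95 CPM in the capsaicin nodose pools and 0.155 to 67.3 CPM in the capsaicin jugular pools. The chemokine receptor Cx3cr1 led the list in the Trpv1+ nodose pools with 12.2 and 14.6 CPM, Cd68 in the first capsaicin nodose pool with 93.8 CPM, and Flt3 in the first capsaicin jugular pool with 43.5 CPM. Of satellite glia and Schwann cell markers all 11 had counts, led by Apoe, Pmp22 and S100b. Their summed level was 4349 to 4446 CPM in the Trpv1+ nodose pools, 3706 to 5043 CPM in the Trpv1+ jugular pools and 3748 to 4233 CPM in the Trpv1- nodose pools and thus overlapped between these groups. Single members differed from the sum: Fabp7, of satellite glia, was at 731 and 371 CPM in the Trpv1+ nodose pools, 219 and 286 CPM in the Trpv1+ jugular pools and 474 and 339 CPM in the Trpv1- nodose pools. In the capsaicin selection the sum was 2159 to 2836 CPM (nodose) and 1992 to 2270 CPM (jugular). At most 2 of the leukocyte markers and 8 to 10 of the glial markers were tested in a comparison, with 0 called. The part of such cells in the pair's level was not tested.

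The endothelial list had 3 of 5 genes with counts and reached at most 28.5 CPM in a pool, all but a fraction from Kdr in 1 Trpv1+ nodose pool. The fibroblast list had 6 of 6 genes with counts and was highest, 296 CPM, in the first capsaicin jugular pool, through Dcn. At most 1 endothelial and 4 fibroblast genes were tested in a comparison, with 0 called.

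The genes whose levels over the 10 pools were most like the mean of the pair were ranked by Pearson's r of log2(CPM + 1) among 9730 genes. The 10 pools share selection, core and depth in blocks, so r is a description only. Manf, a secreted protein of the endoplasmic reticulum stress response, was the only gene at 0.9 or more (r = 0.94), and 31 genes reached 0.8. The next 9 were 1810037I17Rik, Pmvk, Kcnk3, Uts2b, Sdhb, Swi5, Lrrc75a, Zfp644 and Ran, down to r = 0.86. Trpv1 had r = 0.56 and ranked 393. The 10 genes differed in the size of their swings. Manf ranged only from 107 CPM in the second capsaicin jugular pool to 333 CPM in the first Trpv1+ nodose pool, and Sdhb, a subunit of succinate dehydrogenase, from 304 to 896 CPM.

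Kcnk3 and Uts2b came closest to an on and off pattern. Kcnk3, a background potassium channel, was at 132 and 124 CPM in the Trpv1+ nodose pools and 20.8 and 26.7 CPM in the capsaicin nodose pools, and at most 0.680 CPM in the 6 others. Uts2b, which codes for a peptide of the urotensin family, was at 313 and 468 CPM in the Trpv1+ nodose pools, 165 and 126 CPM in the capsaicin nodose pools and at most 0.155 CPM in the 6 others. The pair differed from both in that it kept a level well above the floor outside these 4 pools, of 82.2 CPM or more in sum. Lrrc75a, with 37.7 and 49.7 CPM in the Trpv1+ nodose pools, differed between the capsaicin nodose pools in the same direction as Tmem176a, with 34.7 CPM in the first and 0.797 CPM in the second. Within the 6 pools of the Trpv1 selection alone, 0 of these 10 genes remained among the 10 most alike, and with a pseudocount of 0.1 in place of 1, 8 of them did.

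**Figure D5:**
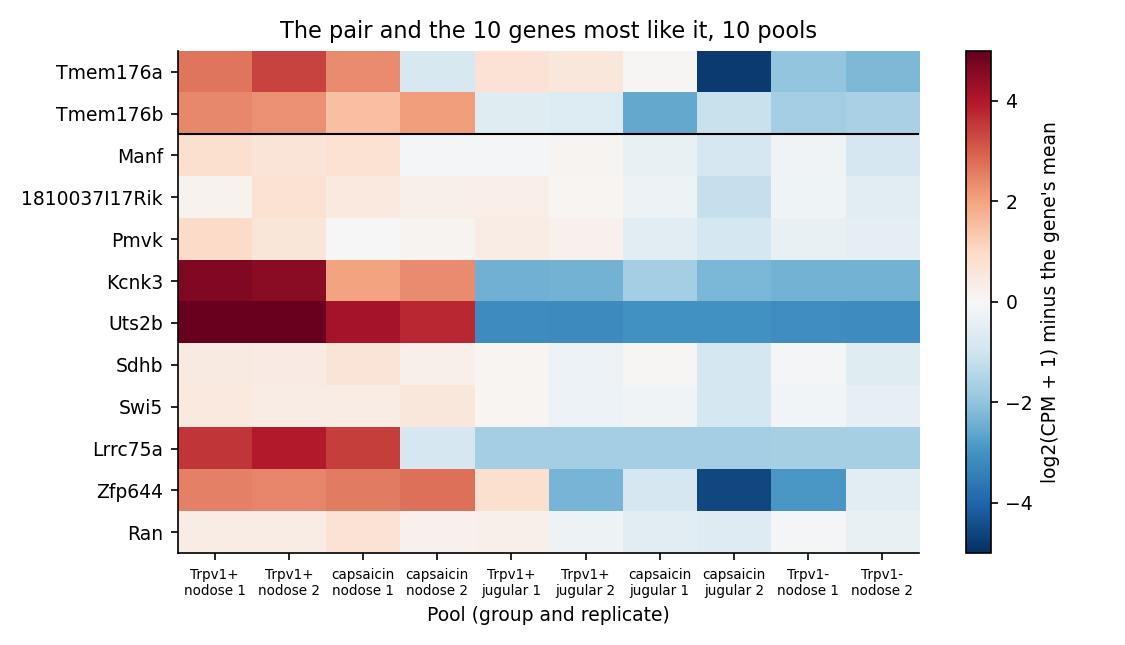
Level of the pair and of the 10 genes most like it in the 10 pools, as log2(CPM + 1) minus the mean of each gene, with red above and blue below that mean. Kcnk3 and Uts2b are high in the 4 Trpv1+ and capsaicin nodose pools and low in the 6 others, while Manf, Sdhb, Swi5 and Ran stay pale because they vary little.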

How the data were processed

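The authors called bases with CASAVA 1.8.2, aligned reads to mm10 with TopHat2 2.0.9 and Bowtie2 2.1.0.0 and counted them per gene symbol with HTSeq. The deposited values are raw counts, 1 library per pool, with 24421 symbols. The gene annotation, counting mode and strand setting are not given in the sources used here. The members and all gene lists were chosen with earlier results of these data known. Named genes were the pair, the 10 genes most like it, neighbours within 200 kb with counts, and of each list the called genes and the 3 most abundant others.

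Fold changes came from edgeR 4.0.16 (TMM, filterByExpr, glmQLFit, glmQLFTest, R 4.3.3), fitted on the 4 pools of each comparison with Benjamini-Hochberg adjustment over all genes tested, and the standard error is the log2 fold change over the square root of F. DESeq2 1.42.0 was an alternative and gave the size factors for CPM. Exon lengths for RPKM were the union of GENCODE vM21 exons (95.45% of symbols matched). Exact permutation tests used scipy 1.17.1. The fits were tested on simulated counts. Recovery of changed genes was required there only at a spread between replicates smaller than in these pools. Replicate pools differed by far more than sampling noise (chi-square per degree of freedom 513 or more), so each counted as 1 replicate. The main fits did not pair pools by replicate number. Some listed genes are not reported here.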

Additional observations from a re-analysis of the deposited data

How the results depend on the processing

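Between the capsaicin pools the number of genes called was 0, against 122 with no filter on low counts, 748 with DESeq2 and 111 with 1 fit over all 10 pools, and 0 to 29 when 1 pool was left out. The main fits did not pair pools by replicate number. Deviations of same-numbered capsaicin pools had r = -0.01 over 5154 genes, which cannot tell whether such pools shared animals. With the replicate block 20 genes were called, and the log2 fold change was 3.17 for Tmem176a and 3.29 for Tmem176b (adjusted p = 1 for both, edgeR). Tmem176b between the capsaicin pools was called only in the fit over all 10 pools (log2 fold change 3.39, adjusted p = 0.0293) and ran from 2.55 to 4.08 when 1 pool was left out. Tmem176a there ran from -0.39 without the first capsaicin nodose pool, a reversed direction, to 6.86 without the first capsaicin jugular pool. A comparison left with 1 pool in a group assumes that this pool varies like the others. In Trpv1+ over Trpv1- nodose, Tmem176b was 4.13 with DESeq2's size factors in edgeR, 4.13 with DESeq2, 3.71 with library totals (a setting chosen after seeing the data) and 4.04 to 4.12 with 1 pool left out. In Trpv1+ nodose over Trpv1+ jugular it was 3.03 with DESeq2's size factors, 2.82 with library totals and 2.92 to 3.004 with 1 pool left out, and Tmem176a was 1.99 to 2.75 with 1 pool left out. Of the 10 genes most like the pair, 0 remained with the 6 pools of the Trpv1 selection. The cause of these changes was not tested.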
